A study of Mus musculus with 12 samples.

Results

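Regulatory T cells sorted for high surface CD25 were compared with those sorted for low surface CD25 in mice whose CD11c-expressing cells lack Atg5. The comparison rests on 6 of the 12 RNA-seq libraries of the study, 3 of CD25 High and 3 of CD25 Low cells, paired by the replicate number in the labels, and covers 11766 expressed genes. The donor mice, called TG, were C57BL/6 of genotype Atg5 flox/flox CD11c Cre +/-. The other 6 libraries, used for the shared estimate of spread and for values set beside those of TG, came from the same gates in Atg5 flox/flox CD11c Cre -/- mice, called WT. All 12 libraries thus carry the floxed Atg5 allele, and no further treatment is labelled. The Cre is driven by the CD11c promoter, so dendritic and other CD11c-expressing cells are its target, and not the sorted T cells. Ages, and whether a replicate number stands for a mouse, a pool or a sort day, are not given in the labels. The p-values therefore measure the spread between these samples, which may be technical. The cells came from spleen and from brachial, cervical and inguinal lymph nodes, and after CD4 enrichment were sorted by CD4, CD25 and 1 other surface protein, which both gates share. No Foxp3 stain or reporter is named.

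CD25 is the alpha chain of the interleukin-2 receptor and is encoded by Il2ra. With the beta chain Il2rb and the shared gamma chain Il2rg it forms the high-affinity receptor, which signals through the kinases Jak1 and Jak3 to the transcription factors Stat5a and Stat5b. In regulatory T cells Foxp3 maintains Il2ra expression and Stat5 maintains Foxp3. A CD25 Low gate can hold Foxp3-negative T cells as well as regulatory T cells with little CD25.

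Total counts were 18697248, 6767828 and 21382878 in TG High replicates 1, 2 and 3 and 19263223, 20223658 and 19230463 in TG Low. TG High replicate 2 was thus the shallowest library, and libraries held counts for 12370 to 14164 genes. Same-numbered TG High and Low libraries deviated together from their group means across genes (r = 0.796, 0.436 and 0.696 for numbers 1, 2 and 3). The T cell genes of the label were present in all 6 libraries. Cd3e ranged from 959 to 1160 CPM (reads of a gene scaled to a common library total, here without TMM) and Cd4 from 582 to 725. Foxp3 was present at 1075 CPM or more in every library, CD25 Low included. Markers of B cells, myeloid cells and natural killer cells were also found and were highest in the libraries numbered 1.

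With the replicate number as a block, edgeR's quasi-likelihood test called 198 of 11766 genes at a Benjamini-Hochberg adjusted p under 0.05 (1.68% of those tested). Of these, 116 were higher in CD25 High (0.986%) and 82 lower (0.697%). The receptor chains Il2ra and Il2rb, the regulatory T cell genes Gpr83 and Lrrc32, the feedback inhibitor Socs2 and the transcription factor Myb rose. The chemokine receptors Cxcr3 and Ccr2, the actin-organising gene Rflnb, the neuropeptide receptor Vipr1 and the death ligand Fasl fell. Most changes were small: the median was 1.57-fold among the higher genes and 1.59-fold among the lower genes, and 28 higher and 23 lower genes reached 2-fold. The median over all tested genes was 0.00 on the log2 scale, with 50.6% positive. The same direction in 3 of 3 pairs was seen for 196 of the 198 called genes, against 31.9% of all tested genes. The exceptions were Vcam1 and Klrk1, which were chosen for mention after their values were seen. The 3 High libraries all lay above the 3 Low libraries in 87 of the 116 higher genes (4.22% of all tested genes lay so). They all lay below them in 53 of the 82 lower genes (3.84% of all tested genes). The calls were made from these same libraries and pairs. Agreement of pairs and separation of the gates among called genes thus follow largely from that choice and are no separate support.

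The pairing carried most of the calls. Without the replicate block 1 gene passed, Il2rb (adjusted p = 0.00657), with Il2ra at 0.0819, and 578 genes had an unadjusted p under 0.05 against 1433 with the block. Leaving out the 4 libraries numbered 1, where markers of other cells were highest, left 39 calls, 29 higher and 10 lower, of which 38 were among the 198. Of the 61 genes taken by the naming rules and called, 22 stayed called without those 4 libraries, 37 did not and 2 were not tested there. Leaving out a single TG library gave between 74 calls (without Low replicate 1) and 177 (without High replicate 2), and 91 without High replicate 1. Fits with fewer libraries have less power, so a call lost in them does not by itself mean a smaller difference.

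**Figure D1:**
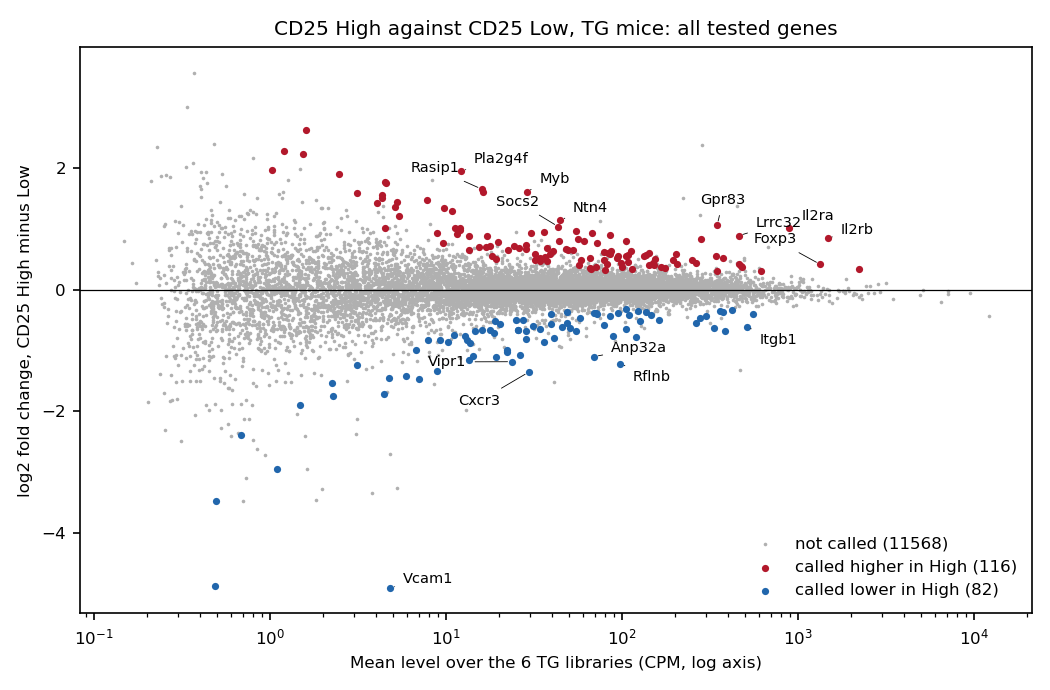
Each point is 1 of 11766 tested genes: the x axis is the mean level over the 6 TG libraries (CPM, log axis) and the y axis the fitted log2 fold change, CD25 High minus Low. Red marks the 116 genes called higher, blue the 82 called lower and grey the rest; Il2rb and Il2ra stand out at high level, and Vcam1 lies lowest among the named genes.

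Il2ra, the gene of the sorted protein, checks the gate and is not a finding of it. Its level was 1147, 1141 and 1261 CPM in CD25 High replicates 1, 2 and 3 and 509.6, 556 and 715 in CD25 Low (all levels from here on are CPM after TMM scaling, in that order). The groups did not overlap, and the difference was 2.01-fold (log2 1.01, SE 0.09, adjusted p = 2.14e-05, with SE the standard error of the log2 value), at chromosome 2, 11642807 to 11693193, plus strand (GRCm38). Il2rb, the signalling beta chain at chromosome 15, 78479256 to 78495271, minus strand, stood at 1888, 1951 and 1858 CPM in High and 966, 1084 and 1112 in Low. It was 1.8-fold higher (log2 0.85, SE 0.07, adjusted p = 2.14e-05), without overlap, though no antibody selected it. Il2rg, the gamma chain shared with other cytokine receptors, was not among the called genes at 1768, 1909 and 1771 CPM in High and 1861, 1820 and 1984 in Low (log2 -0.06, SE 0.07, adjusted p = 0.807). Its interval on the log2 scale was -0.19 to 0.07, so a change as large as that of Il2rb lay outside it. Per kilobase of exon, which allows levels to be compared between genes, Il2ra stood at 207 in High and 104 in Low (mean CPM per kb), Il2rb at 443 in High and 246 in Low and Il2rg at 761 in High and 791 in Low. By this measure Il2ra RNA was the lowest of the 3 chains in both gates, and Il2rg the highest. The length used joins all annotated exons of a gene, 5711 bases for Il2ra, 4287 for Il2rb and 2387 for Il2rg. Which transcripts were expressed was not measured. In these bulk samples a smaller share of cells with a transcript and less of it per cell cannot be told apart. Il2ra and Il2rb were the 2 that passed of 11 genes on the list of the receptor and its Janus kinase and Stat5 signalling. That is 18.2%, beside 1.68% of all tested genes, and the list's median log2 difference was 0.03. Per kilobase, Jak1 stood at 267 in High and 261 in Low, Jak3 at 73.3 in High and 74.1 in Low, Stat5a at 26.8 in High and 21.8 in Low and Stat5b at 88 in High and 81 in Low. Their adjusted p-values were 0.927, 0.999, 0.0696 and 0.487, so none passed.

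**Figure D2:**
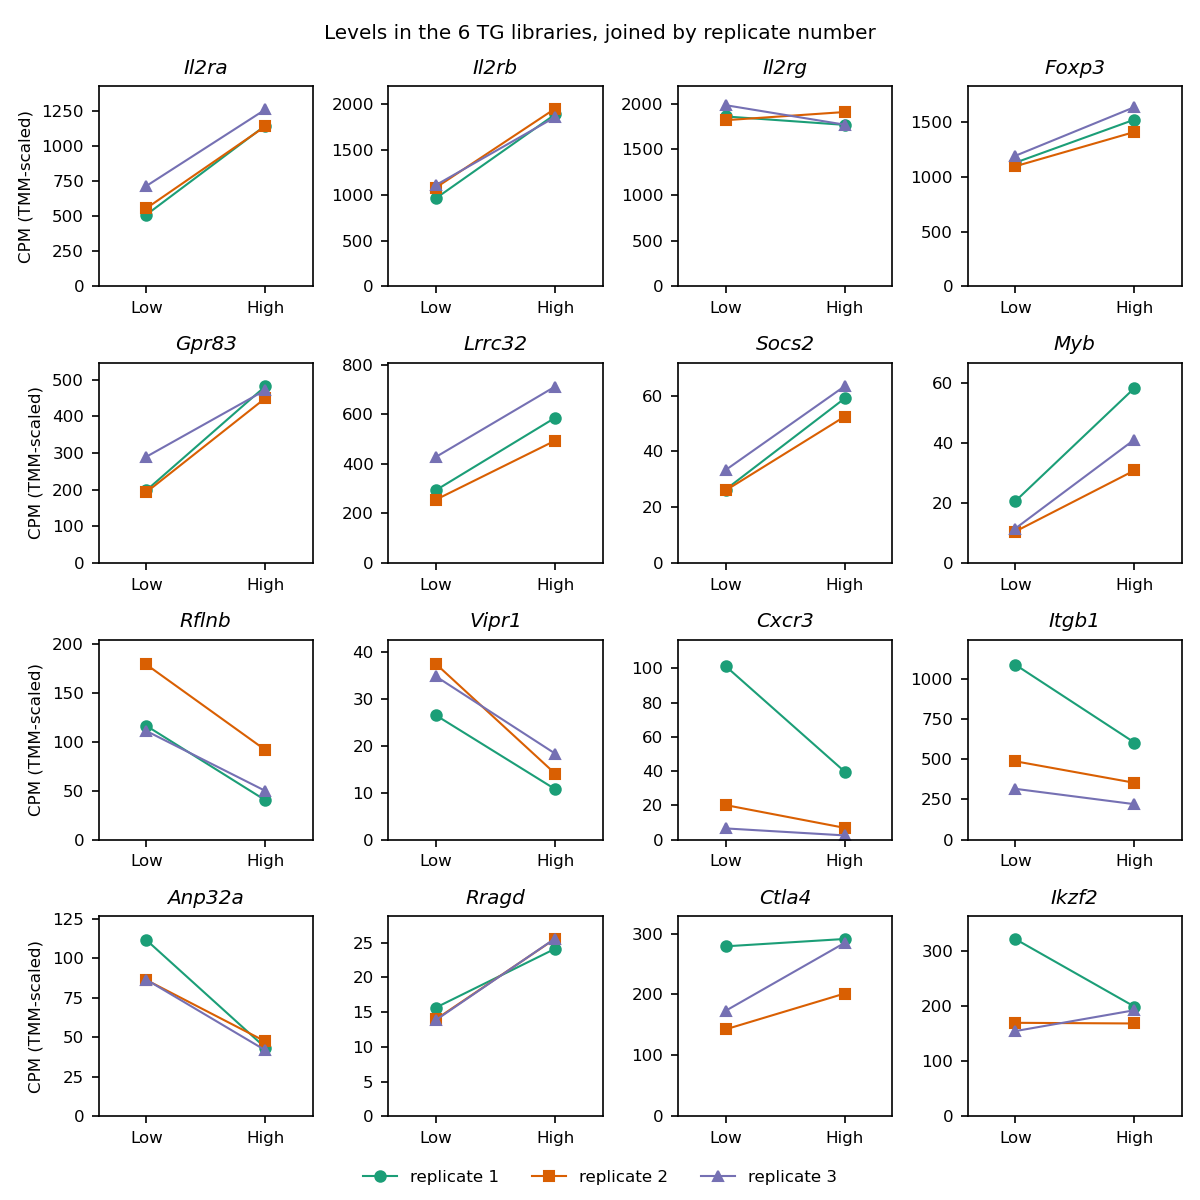
Levels (CPM after TMM scaling, y axis from 0) of 16 genes in CD25 Low and High, with lines joining TG libraries of the same replicate number. Il2ra, Il2rb and Gpr83 rise in all 3 pairs without overlap between the gates; Cxcr3 and Itgb1 fall in all 3 pairs but differ more between replicate numbers than between gates, and Ikzf2 moves in no single direction.

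Of 24 listed targets of interleukin-2 and Stat5, 3 rose (Socs2, Tnfrsf4 and Cish), none fell, and the median log2 difference was 0.13. The 3 are 12.5% of the list, beside 1.68% of all tested genes. Socs2, a feedback inhibitor of cytokine signalling, was at 59, 52.5 and 63.4 CPM in High and 26.3, 26 and 33.3 in Low (log2 1.04, SE 0.12, adjusted p = 0.000193), a 2.06-fold difference without overlap. Tnfrsf4, the costimulatory receptor OX40, was at 608, 280.1 and 435 CPM against 428, 177 and 320.3 (log2 0.53, SE 0.09, adjusted p = 0.00562). It rose in each pair while the groups overlapped, with replicate 2 lowest in both gates. Cish, a feedback inhibitor that Stat5 induces, was at 300.3, 252 and 351 CPM against 196, 223 and 249.9 (log2 0.43, SE 0.10, adjusted p = 0.0364). Its call was lost on leaving out single libraries: Cish without High 1, High 3, Low 1, Low 2 or Low 3 (adjusted p = 0.276, 0.0847, 0.207, 0.0531 and 0.149).

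Promoter windows of RefSeq (GRCm38.p6, 250 bases before to 50 after the start) were searched on both strands for the STAT motif TTCNNNGAA. It was chosen because Stat5 acts below the sorted receptor, but it is a motif of the STAT family and does not single out Stat5. Among the called genes with a window, 8 of 88 higher genes held it (9.09%) and 6 of 56 lower genes (10.7%), against 8.30% of 9197 tested genes. These shares are descriptions. The windows of Cish and Foxp3 held it, and those of Il2ra, Gpr83 and Rflnb did not, which says only that these letters are not in those windows. The stretches are shown in transcript direction with the motif in capitals. Those of Cish are chr9:107296649-107296676 and chr9:107296660-107296687, plus strand, overlapping each other, and that of Foxp3 is chrX:7580319-7580377, plus strand.
Cish, first match: ccgcccagttTTCCTGGAAagttcttgg
Cish, second match: tcctggaaagTTCTTGGAAatctgtcaa
Foxp3: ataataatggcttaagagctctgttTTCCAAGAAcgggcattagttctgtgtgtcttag

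Of 24 listed genes of the regulatory T cell core, 9 rose and 1 fell, 20 had a positive log2 difference, and the median was 0.40. Of all tested genes 1.68% were called and 50.6% had a positive difference, beside 41.7% called here. The 9 include Il2ra, the gene of the sorted protein. Those that rose were Il2ra, Il2rb, Socs2 and Tnfrsf4, with values above, and Foxp3, Gpr83, Lrrc32, Swap70 and Ikzf4. The gene that fell was Tigit. The list was chosen with earlier results of these data known, so its direction is a description. Foxp3, the transcription factor that defines the lineage (chromosome X, 7573644 to 7595245, plus strand), was at 1524, 1412 and 1639 CPM in High and 1130, 1098 and 1193 in Low, 1.34-fold higher without overlap (log2 0.42, SE 0.08, adjusted p = 0.0114). Its annotated span overlaps that of Ccdc22 by 1437 bases and that of Ppp1r3f by 640 on the other strand, and neither of these was called. The overlap of exons was not measured. Gpr83, a G protein-coupled receptor enriched in regulatory T cells, was at 482, 449 and 471 CPM against 198, 193 and 289 (log2 1.06, SE 0.11, adjusted p = 0.000142). Lrrc32, which encodes GARP, the surface anchor of latent TGF-beta, was at 586, 493 and 712 CPM against 294, 255 and 428 (log2 0.89, SE 0.09, adjusted p = 5.38e-05). Both rose without overlap, Gpr83 to 2.09-fold and Lrrc32 to 1.85-fold its level in Low. Ikzf4, an Ikaros family factor that binds Foxp3, was at 245, 210.3 and 252 CPM against 168, 164 and 194 (log2 0.43, SE 0.08, adjusted p = 0.0102). Swap70, a signalling adaptor that binds Rac, was at 208, 149.7 and 162 against 157, 102 and 125 (log2 0.45, SE 0.08, adjusted p = 0.00484). Some of these calls were lost without a single library. Foxp3 lost its call without High 1, High 3 or Low 2 (adjusted p = 0.105, 0.0801 and 0.0686). Its log2 difference there was 0.38, 0.37 and 0.37. Ikzf4 lost its call without High 1 or Low 1 (adjusted p = 0.0928 and 0.0952), at log2 differences of 0.38 and 0.39. Without the libraries numbered 1 the adjusted p was 0.251 for Foxp3, 0.379 for Ikzf4, 0.12 for Swap70 and 0.12 for Tnfrsf4, so these 4 calls ended. The log2 differences in that smaller fit were 0.41, 0.37, 0.47 and 0.54, in the same order, near those of the full fit.

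Other genes widely used to describe regulatory T cells did not pass. Ctla4, the inhibitory receptor that takes CD80 and CD86 from dendritic cells, was at 291, 202 and 285 CPM in High and 279, 143 and 173 in Low (log2 0.42, SE 0.11, adjusted p = 0.0613). Without the 4 libraries numbered 1 its adjusted p was 0.0286. Icos, a costimulatory receptor of effector cells, was at 185, 83.9 and 77.6 against 307, 119 and 70.9 (log2 -0.38, SE 0.17, adjusted p = 0.398), below Low in replicates 1 and 2 and above it in replicate 3. Ikzf2, which encodes Helios, was at 199, 169 and 193 CPM against 322, 169.7 and 155 (log2 -0.15, SE 0.24, adjusted p = 0.871), with an interval of -0.61 to 0.31 on the log2 scale. Low replicate 1 was the highest of the 6 libraries, and without it the log2 difference was 0.11.

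Among 27 listed Ikaros family members and other partners of Foxp3, Myb, Ikzf4 and Foxp3 rose and none fell (median log2 -0.01). That is 11.1% of the list, beside 1.68% of all tested genes. Myb, a transcription factor of blood progenitors and developing T cells, was 3.07-fold higher, at 58.2, 30.8 and 41 CPM in High and 20.5, 10.5 and 11.4 in Low (log2 1.62, SE 0.22, adjusted p = 0.00355). Its lowest High library exceeded its highest Low library, and within each gate replicate 1 was highest. The forkhead motif GTAAACA, of the type that Foxp3 and Foxo factors bind, was searched in the same windows on both strands (its other strand reads TGTTTAC). It was held by 7 of 88 higher genes (7.95%) and 3 of 56 lower genes (5.36%), against 3.19% of 9197 tested genes, as a description without a test. The named genes holding it are shown in transcript direction with the motif in capitals. Myb is chr10:21160935-21160961 on the minus strand, and on the plus strand Swap70 is chr7:110221571-110221627, Gbp3 is chr3:142559794-142559836 and Dapl1, which fell, is chr2:59484464-59484520.
Myb: tgatggcatcTGTTTACagagttacac
Swap70: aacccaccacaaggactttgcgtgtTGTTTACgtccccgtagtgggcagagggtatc
Gbp3: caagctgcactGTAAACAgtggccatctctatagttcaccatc
Dapl1: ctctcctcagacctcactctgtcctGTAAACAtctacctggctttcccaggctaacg

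Genes of TGF-beta presentation and of NF-kB signalling held 3 called members each, all higher. These are 20% and 13.0% of the tested members, beside 1.68% of all tested genes. Of 15 tested TGF-beta genes these were Lrrc32, Tgfbr1 and Skil (median log2 0.16). Tgfbr1, the type I receptor, was at 127, 136 and 124 CPM in High and 87.6, 86.4 and 87.1 in Low (log2 0.57, SE 0.10, adjusted p = 0.00774), with the Low libraries within 2 CPM of each other. Skil, a repressor of Smad proteins, was at 212, 225 and 241 against 126, 163 and 194 (log2 0.50, SE 0.11, adjusted p = 0.0274). Of 23 NF-kB genes, Map3k8, Cd83 and Rel rose (median log2 0.04). Rel, the c-Rel subunit needed for Foxp3 induction, was at 119, 96.1 and 116 CPM against 79.4, 85.2 and 66.2 (log2 0.52, SE 0.11, adjusted p = 0.0237). Map3k8, a kinase released from the NF-kB precursor, was at 57.7, 44.5 and 90.1 against 30.4, 35.5 and 57.7 (log2 0.65, SE 0.12, adjusted p = 0.00624), and Cd83, a surface protein of activated lymphocytes and dendritic cells, at 213, 90.3 and 93.9 against 169, 45 and 61 (log2 0.64, SE 0.12, adjusted p = 0.0158). Rel did not overlap between gates, and the other two did. Calls lost without a single library were Tgfbr1 without Low 1 (adjusted p = 0.0847), Skil without High 1, High 2, High 3 or Low 1 (adjusted p = 0.116, 0.127, 0.0513 and 0.177), Rel without High 1, High 3, Low 1 or Low 3 (adjusted p = 0.143, 0.11, 0.159 and 0.125), Map3k8 without High 1 or Low 1 (adjusted p = 0.0648 and 0.08) and Cd83 without High 2, Low 2 or Low 3 (adjusted p = 0.0619, 0.0787 and 0.0686).

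The increases in this paragraph were ranked among called genes averaging 10 CPM or more in CD25 High. The largest of them were mostly in genes with no standard role in regulatory T cells. Below that level, Cavin1 (log2 2.62), Kcnj15 (2.29), Fibcd1 (2.24) and Dpt (1.98) rose more than any gene ranked here. Pla2g4f, a cytosolic phospholipase A2, rose 3.87-fold, from 7.17, 3.33 and 4.34 CPM in Low to 28.8, 9.34 and 20.4 in High (log2 1.95, SE 0.18, adjusted p = 2.14e-05). Rasip1, a Ras-interacting protein known from blood vessel formation, was at 24.6, 15.6 and 31.8 CPM against 6.56, 4.24 and 12.9 (log2 1.66, SE 0.17, adjusted p = 9.9e-05). Its annotated span overlaps that of Izumo1 by 1336 bases on the same strand. Drc1, a subunit of the regulatory complex of ciliary dynein, was at 23.4, 18.1 and 30.3 against 4.92, 5.25 and 15.3 (log2 1.60, SE 0.24, adjusted p = 0.00364), and Rec8, a meiotic cohesin subunit, at 17.5, 13.6 and 15.1 against 8.19, 4.14 and 6.73 (log2 1.29, SE 0.20, adjusted p = 0.00259). The 3 High libraries lay above the 3 Low libraries in each of these 4 genes (4.22% of all tested genes lay so), which follows largely from their being called. Ntn4, a secreted netrin related to laminin, was at 35.4, 102 and 45.5 CPM against 13.2, 49.2 and 22 (log2 1.15, SE 0.17, adjusted p = 0.00398). Replicate 2 was highest in both gates, so the groups overlapped although each pair rose. Slc22a5, which imports carnitine for fatty acid oxidation, was at 63.1, 72.7 and 80.6 CPM against 30.1, 36.5 and 45.5 (log2 0.96, SE 0.09, adjusted p = 5.11e-05). Selp (P-selectin) had a log2 difference of 1.48, Stra6 (a retinol transporter) 1.35 and Trpm1 (a cation channel) 1.02. Slc22a2 (an organic cation transporter) had 1.02 and Map7 (a microtubule-binding protein) 0.98. These genes complete the 15 largest increases above that level, at adjusted p from 0.00398 to 0.0141. The calls lost were Selp without Low 1 (adjusted p = 0.0822), Trpm1 without Low 1 (adjusted p = 0.0514), Slc22a2 without Low 1 (adjusted p = 0.0822) and Map7 without High 1, High 2 or Low 1 (adjusted p = 0.0823, 0.0546 and 0.138), and that of Stra6 without the libraries numbered 1 (adjusted p = 0.12).

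Genes typical of conventional CD4 T cells were lower where they passed. Of 20 listed genes 5 fell and none rose (median log2 -0.04): Rflnb, Ly6c1, Cd40lg, Dapl1 and Pde3b. The 5 are 25% of the list, beside 1.68% of all tested genes. Rflnb, which organises actin through filamin, was 2.33-fold higher in Low, at 40.2, 91.5 and 49.8 CPM in High and 116, 179 and 111 in Low (log2 -1.22, SE 0.10, adjusted p = 2.14e-05). Its highest High library lay below its lowest Low library. Cd40lg, the ligand by which helper T cells activate B cells and dendritic cells, was at 30.3, 38.9 and 27.5 CPM against 48.7, 53.4 and 39.5 (log2 -0.56, SE 0.12, adjusted p = 0.0186). Pde3b, a phosphodiesterase that Foxp3 represses, was at 10.0, 7.35 and 7.03 against 25.3, 17.1 and 14 (log2 -1.15, SE 0.24, adjusted p = 0.0344), and Dapl1 at 8.06, 18.5 and 11.7 against 24.6, 25.7 and 27.5 (log2 -1.10, SE 0.22, adjusted p = 0.0222). Neither overlapped between the gates. Ly6c1, a surface antigen of T cell subsets, was at 185, 249 and 264 CPM against 247, 372 and 353 (log2 -0.47, SE 0.09, adjusted p = 0.0103). Of 23 naive or resting T cell genes, 3 fell, Ly6c1, Dapl1 and Tdrp, and 1 rose (median log2 -0.04). Calls were 17.4% of that list. Tdrp was at 19, 33.7 and 29 against 33.9, 49.2 and 41.4 (log2 -0.64, SE 0.14, adjusted p = 0.0229). Calls lost without a single library were Ly6c1 without High 1 or Low 3 (adjusted p = 0.0639 and 0.0617), Cd40lg without High 1, High 3, Low 1 or Low 2 (adjusted p = 0.175, 0.0601, 0.0822 and 0.0815), Pde3b without High 1, High 2, High 3, Low 1 or Low 3 (adjusted p = 0.234, 0.133, 0.0519, 0.207 and 0.113), Dapl1 without High 1, High 3, Low 1, Low 2 or Low 3 (adjusted p = 0.0701, 0.1, 0.119, 0.0532 and 0.075) and Tdrp without High 1, High 3, Low 1 or Low 2 (adjusted p = 0.18, 0.0801, 0.112 and 0.108).

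A receptor and an enzyme of cyclic AMP signalling fell. Of 20 tested genes of cyclic AMP, adenosine and vasoactive intestinal peptide signalling, Vipr1 and Pde3b fell and none rose (median log2 -0.03). They are 10% of the tested members, beside 1.68% of all tested genes. Vipr1, a receptor that raises cyclic AMP, was at 10.8, 14.1 and 18.3 CPM in High and 26.5, 37.4 and 34.8 in Low, 2.27-fold higher in Low without overlap (log2 -1.18, SE 0.15, adjusted p = 0.000613). Pde3b, described above, degrades cyclic AMP.

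The chemokine receptors that passed were lower in CD25 High. Of 19 tested receptors 4 fell, none rose, 15 had a negative log2 difference, and the median was -0.51. That is 21.05% called, beside 1.68% of all tested genes, where 50.6% were positive. A positive difference was seen in 3, 4 and 7 of the 19 in pairs 1, 2 and 3. The medians there were -0.54, -0.34 and -0.09. Cxcr3, the receptor of T helper 1 type cells for interferon-induced chemokines, was at 39.7, 6.89 and 2.49 CPM in High and 101, 20.2 and 6.57 in Low (log2 -1.35, SE 0.21, adjusted p = 0.00398). Each pair fell, but replicate 1 was far above the others in both gates. Ccr2, a receptor of inflamed-tissue homing, was at 35.7, 8.57 and 1.08 against 60.3, 25.7 and 2.12 (log2 -1.02, SE 0.20, adjusted p = 0.015), and Ccr3, known from eosinophils and some T cells, at 5.89, 0.765 and 0 against 14.9, 4.8 and 0.371 (log2 -1.71, SE 0.35, adjusted p = 0.0189). Both had the same order of replicates as Cxcr3. Gpr183, which guides cells along oxysterol gradients in lymphoid tissue, was at 101, 114 and 95.4 CPM against 145, 170.0 and 129.6 (log2 -0.51, SE 0.09, adjusted p = 0.00522). It was even across replicates and did not overlap between gates. Summed markers of myeloid cells and of CD8 and natural killer cells were highest in the same replicate 1 libraries as Cxcr3, Ccr2 and Ccr3, and their part in these differences was not tested. Without the libraries numbered 1, Cxcr3 had an adjusted p of 0.0435, Ccr2 of 0.105, Ccr3 of 0.12 and Gpr183 of 0.143. Calls lost without a single library were Ccr2 without Low 1 or Low 2 (adjusted p = 0.112 and 0.0532) and Ccr3 without High 2, Low 1 or Low 2 (adjusted p = 0.0719, 0.138 and 0.0563).

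Adhesion and homing genes moved both ways. Of 23 tested genes, 2 rose, among them Selp, and 4 fell, Itgb1, Ly6c1, Ly6a and Vcam1 (median log2 -0.06). Calls were 26.1% of the tested members, beside 1.68% of all tested genes. Itgb1, the beta1 integrin chain of activated and tissue-homing T cells, was at 603, 353 and 220.3 CPM in High and 1086, 486 and 316 in Low (log2 -0.61, SE 0.09, adjusted p = 0.00233). It fell in each pair, with replicate 1 highest in both gates, and without the libraries numbered 1 its adjusted p was 0.0896. Ly6a, the stem cell antigen that activated T cells also carry, was at 262, 352 and 272 against 489.8, 519 and 397 (log2 -0.67, SE 0.12, adjusted p = 0.0114) without overlap, and its call was lost on leaving out single libraries: Ly6a without High 1, High 2, Low 1 or Low 3 (adjusted p = 0.116, 0.11, 0.0865 and 0.0653). Vcam1, an adhesion molecule of macrophages and vessel cells, had 545 counts in Low replicate 1, 15 in High replicate 1, 7 in Low replicate 2 and 0 in the other 3 TG libraries. Its difference was thus that of 1 library, and the call was lost as follows: Vcam1 without High 1 or Low 1 (adjusted p = 0.619 and 0.525).

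Of 14 tested CD28 family and inhibitory receptors, Vsir and Tigit fell and none rose (median log2 -0.02). They are 14.3% of the tested members, beside 1.68% of all tested genes. Vsir, which encodes VISTA, was at 293, 340.1 and 349 CPM in High and 424, 432 and 402 in Low (log2 -0.36, SE 0.08, adjusted p = 0.0364), without overlap. Tigit, an inhibitory receptor of activated regulatory T cells, was at 22.7, 3.06 and 0.656 against 49.9, 8.23 and 1.17 (log2 -1.09, SE 0.25, adjusted p = 0.0413), and replicate 3 was near 1 CPM in both gates. Of 19 tested TNF receptor family genes and ligands, Tnfrsf4 rose and Fasl and Cd40lg fell (median log2 0.05). Calls were 15.8% of the tested members. Fasl, the ligand that kills Fas-bearing cells, was at 3.61, 6.58 and 5.21 CPM against 14.2, 12.3 and 11.3, 2.52-fold higher in Low without overlap (log2 -1.33, SE 0.22, adjusted p = 0.00364), and was the 1 called gene of 24 apoptosis genes. Without the libraries numbered 1 its adjusted p was 0.0896, and its call was 4.17% of the apoptosis list. Il9r, the interleukin-9 receptor, was at 23.1, 4.59 and 1.45 against 40.3, 11 and 2.33 (log2 -0.87, SE 0.18, adjusted p = 0.0204), again highest in replicate 1. Among 32 activated or effector regulatory T cell genes, Vim rose and Tigit fell (median log2 -0.18), 6.25% of the list. The pair difference was positive in 9, 13 and 20 of the 32 genes in replicates 1, 2 and 3. Vim, the intermediate filament vimentin, was at 417, 388 and 341 CPM against 368, 298 and 263 (log2 0.31, SE 0.07, adjusted p = 0.0429). Calls lost without a single library were Vsir without High 1, High 2, Low 1, Low 2 or Low 3 (adjusted p = 0.261, 0.0807, 0.25, 0.0619 and 0.0651), Tigit without High 1, High 2, Low 1 or Low 3 (adjusted p = 0.179, 0.135, 0.471 and 0.0788), Il9r without High 1, High 2, Low 1 or Low 2 (adjusted p = 0.069, 0.0789, 0.229 and 0.0638) and Vim without High 1, High 2, High 3, Low 1, Low 2 or Low 3 (adjusted p = 0.128, 0.0866, 0.138, 0.0584, 0.133 and 0.151).

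Of 36 genes of the receptor complex and its proximal signalling, Trac and Thy1 fell and none rose (median log2 -0.04). They are 5.56% of the list, beside 1.68% of all tested genes. Trac, the constant region of the receptor alpha chain, was at 503, 444 and 491 CPM in High and 662, 558 and 675 in Low (log2 -0.40, SE 0.08, adjusted p = 0.0231), and its call was lost as follows: Trac without High 1, High 2, High 3, Low 1 or Low 3 (adjusted p = 0.105, 0.0732, 0.0507, 0.137 and 0.118). Thy1, the surface glycoprotein Thy-1 of mouse T cells, was at 81.7, 83 and 101 against 178, 149.8 and 131 (log2 -0.77, SE 0.12, adjusted p = 0.00364). Neither overlapped between gates, and without the libraries numbered 1 the call of Thy1 was lost (adjusted p = 0.117). Cd4 was at 665, 619.9 and 585 CPM against 715, 595 and 600.2 (adjusted p = 0.933), with an interval of -0.17 to 0.12 on the log2 scale.

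The other large decreases came from genes of varied function. Anp32a, a nuclear inhibitor of protein phosphatase 2A, was at 43.5, 47.4 and 41.9 CPM in High and 112, 86.4 and 86.6 in Low (log2 -1.10, SE 0.14, adjusted p = 0.00135), with High libraries within 6 CPM of each other. Eya2, a transcriptional cofactor with phosphatase activity, was at 10.8, 19.1 and 15.1 against 23, 37.3 and 28.6 (log2 -0.99, SE 0.11, adjusted p = 0.000181). Chil5, a chitinase-like protein, was at 11.5, 22.3 and 16.8 against 26.2, 50.3 and 31.4 (log2 -1.07, SE 0.12, adjusted p = 0.000173), and Itga7, a laminin-binding integrin chain, at 4.93, 1.22 and 4.97 against 14.7, 6.11 and 10.4 (log2 -1.46, SE 0.24, adjusted p = 0.00364). All 4 fell without overlap between gates (3.84% of all tested genes lay so), which follows largely from their being called. Without the libraries numbered 1, the calls of Anp32a (adjusted p = 0.0545) and Itga7 (0.104) were lost. Evi2a, a membrane protein gene inside Nf1 on the other strand, was at 9.81, 5.36 and 6.52 CPM against 19.4, 9.49 and 11.4 (log2 -0.86, SE 0.16, adjusted p = 0.00939), and its span overlaps that of Evi2 on its own strand. Its call was lost as follows: Evi2a without High 1, Low 1 or Low 3 (adjusted p = 0.0874, 0.0981 and 0.0509).

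Between 1 and 2 genes passed in each of 4 lists of metabolism, calcium and interferon response, 3.33% of the mTORC1 list, 5% of the calcium list, 8.70% of the lipid list and 2.94% of the interferon list, beside 1.68% of all tested genes. Rragd, a Rag GTPase that brings mTORC1 to the lysosome, was the 1 called gene of 30 in mTORC1 and amino acid sensing, at 24.1, 25.6 and 25.6 CPM in High and 15.7, 14 and 13.9 in Low (log2 0.79, SE 0.12, adjusted p = 0.00342). Mcub, the subunit that dampens the mitochondrial calcium uniporter, was the 1 called gene of 20 in calcium entry, at 49.3, 42.7 and 46.5 against 29.9, 25.5 and 30.9 (log2 0.68, SE 0.10, adjusted p = 0.00125). Both rose without overlap and with little spread in either gate. Of 23 lipid synthesis genes Scd2, a fatty acid desaturase, and Dgat2, which makes triglycerides, rose (median log2 0.13). Scd2 was at 145, 133 and 98.1 CPM against 108, 96.5 and 69.7 (log2 0.46, SE 0.08, adjusted p = 0.00799) and Dgat2 at 21.6, 9.64 and 13.6 against 13.1, 3.99 and 7.36 (log2 0.92, SE 0.19, adjusted p = 0.0216). Gbp3, an interferon-induced GTPase, was the 1 called gene of 34 interferon-stimulated genes, at 141, 197 and 156 against 113, 110.4 and 105 (log2 0.57, SE 0.10, adjusted p = 0.00502), beside a list median of -0.01. Calls lost without a single library were Scd2 without Low 1 (adjusted p = 0.0815) and Dgat2 without High 1, High 3, Low 2 or Low 3 (adjusted p = 0.178, 0.0616, 0.0815 and 0.0744), and that of Mcub was lost without the libraries numbered 1 (adjusted p = 0.058).

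No gene passed among 34 autophagy genes, 29 heat shock and unfolded protein response genes, 20 glycolysis genes, 15 helper lineage genes, 23 immediate early genes or 34 cell cycle genes. Atg5, the gene deleted in CD11c-expressing cells and the one whose product conjugates to Atg12 in autophagosome formation, was at 33.9, 40.4 and 41.5 CPM in High and 36.5, 37.8 and 41.3 in Low (adjusted p = 0.995). Its interval was -0.19 to 0.18 on the log2 scale, and as the sorted T cells are not the target of the Cre its level does not check the genotype. The autophagy genes with the smallest p were Rb1cc1 (log2 0.28, adjusted p = 0.093) and Nbr1 (0.23, 0.168). Cell cycle genes had a positive log2 difference in 32 of 34 (median 0.27), with Top2a, the replication topoisomerase, at 96.6, 10.4 and 6 CPM against 52.5, 9.29 and 5.03 (log2 0.52, SE 0.15, adjusted p = 0.111). Their summed level was 2158, 875 and 779 CPM in High and 1631, 841 and 783 in Low. The pair difference was positive in 34 of 34 genes in replicate 1, 12 in replicate 2 and 21 in replicate 3. Immediate early genes were positive in 17 of 23 (median 0.27), with a median of -0.02 in WT. The difference between these medians was not tested, and no gene passed in the test of the difference between TG and WT. By pair, 18, 9 and 17 of the 23 were positive in replicates 1, 2 and 3. Of all tested genes 50.6% were positive in the fit. Fosb was at 22.4, 1.68 and 15.1 CPM against 4.66, 1.11 and 5.19 (log2 1.81, SE 0.55, adjusted p = 0.196), and Dusp5, a phosphatase of the MAP kinase Erk, at 168, 152 and 162 against 139, 134 and 141 (log2 0.22, SE 0.07, adjusted p = 0.178). Of the helper lineage genes, Maf and Tbx21 had the smallest p, at adjusted p = 0.0886 and 0.132, as had Aldoa (0.0782) and Hk2 (0.123) in glycolysis and Hspa5 (0.295) and Canx (0.378) in the unfolded protein response.

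**Figure D3:**
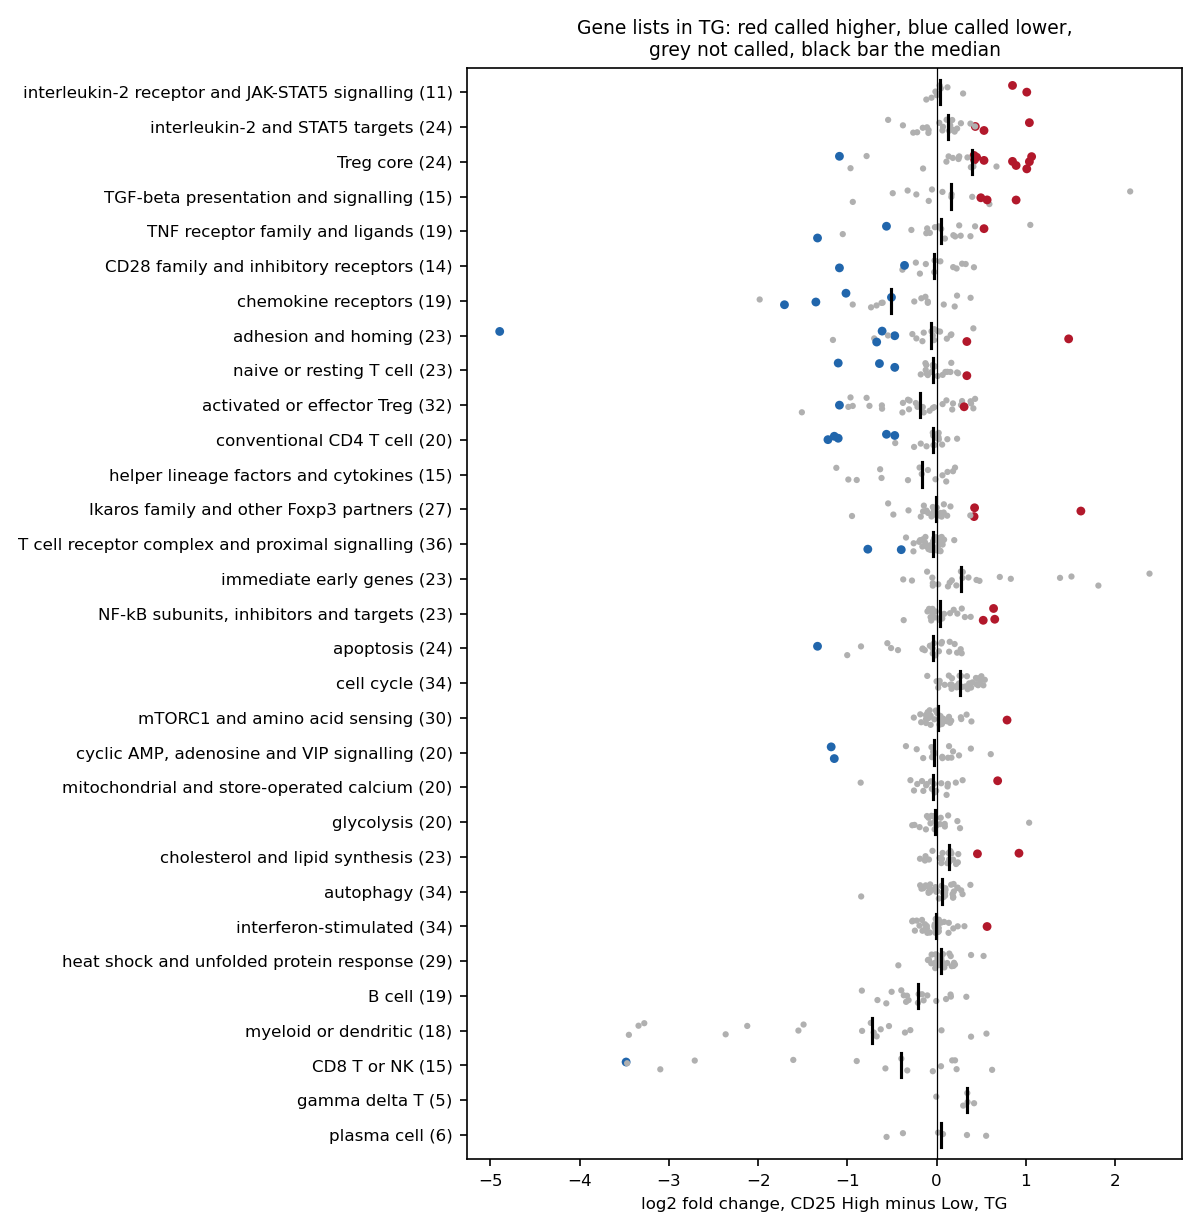
Fitted log2 fold changes (x axis, CD25 High minus Low in TG) of the tested members of each gene list, with the number tested in brackets; lists with under 5 tested members are left out. Red points are called higher, blue called lower and grey not called, and the bar is the list's median. The regulatory T cell core has a median of 0.40 with 9 red points, chemokine receptors a median of -0.51 with 4 blue points, and the cell cycle list 34 grey points.

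Transcripts of other cells were present and differed more by replicate number than by gate. The summed level of 19 B cell genes was 1376, 617 and 510 CPM in High replicates 1, 2 and 3 and 1454, 694 and 577 in Low, lower in High in each pair. None of 19 tested B cell genes was called, and 15 were negative (median log2 -0.21). The pair difference was positive in 13, 2 and 7 of the 19 in replicates 1, 2 and 3. The 26 myeloid or dendritic genes summed to 940, 251 and 135 CPM in High and 1282, 312 and 142 in Low. None of the 18 tested was called, and 15 were negative (median log2 -0.72). Csf1r, the receptor that defines macrophages, was at 414 counts in Low replicate 1, 30 in High replicate 1, 1 in High replicate 3 and 0 in the others. The 23 CD8 or natural killer genes summed to 154, 88.4 and 88.5 CPM in High and 213, 90.3 and 78.7 in Low. Of 15 tested, Klrk1, an activating receptor of those cells, was called lower on 4, 0 and 0 counts in High and 46, 8 and 0 in Low, and its call was lost as follows: Klrk1 without High 1, High 2, Low 1 or Low 2 (adjusted p = 0.561, 0.0546, 0.307 and 0.0591). The neutrophil gene Ly6g was at 0 counts in all 6 libraries, and the erythroid genes summed to at most 3.43 CPM. None of 5 tested gamma delta T cell genes (median log2 0.34) or 6 plasma cell genes (0.04) was called, and 1 neutrophil and 2 erythroid or platelet genes could be tested, without a call. The part of these cells in the results was not tested. The genes called in all 12 alternatives that kept the replicate block, which include the fit without the libraries numbered 1, numbered 35, 25 higher and 10 lower. They included Il2ra, Il2rb, Lrrc32, Gpr83, Socs2, Myb, Pla2g4f, Rasip1, Rragd, Gbp3 and Slc22a5 among the higher genes, and Cxcr3, Rflnb, Vipr1, Eya2 and Chil5 among the lower ones.

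**Figure D4:**
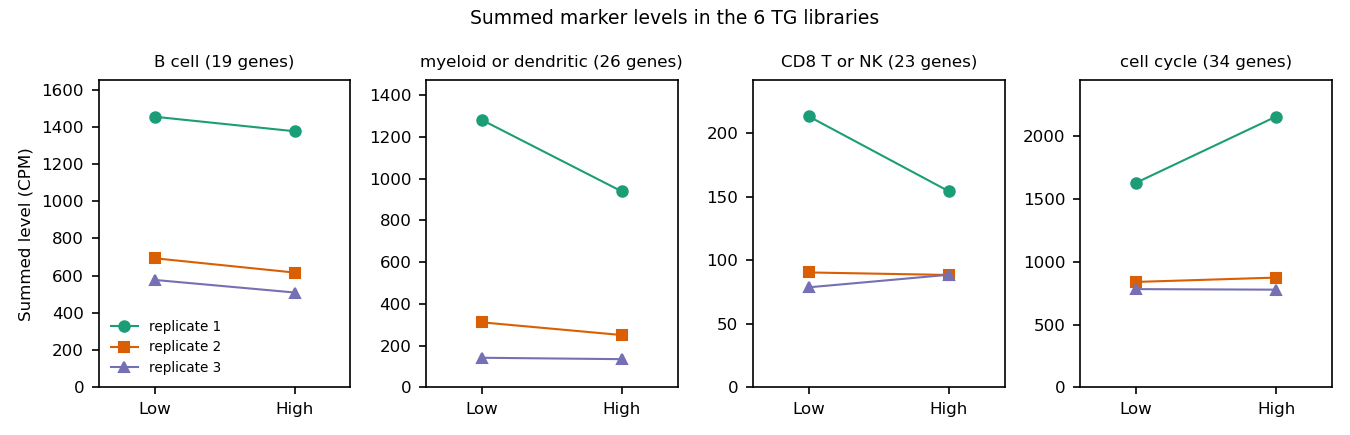
Summed levels (CPM, y axis from 0) of B cell, myeloid or dendritic, CD8 T or NK, and cell cycle genes in CD25 Low and High, with lines joining TG libraries of the same replicate number. Replicate 1 lies above replicates 2 and 3 in every panel and both gates; myeloid genes reach 1282 CPM in Low replicate 1 against 142 in Low replicate 3.

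No difference between the gate effect in TG and that in WT passed. The test of the difference itself called 0 of 11766 genes in edgeR, in DESeq2 and in limma voom, with 118 (1%) at an unadjusted p under 0.05 in edgeR. In the same fit WT had 192 calls (1.63%), 117 higher (0.994%) and 75 lower (0.637%), and 1085 genes (9.22%) at an unadjusted p under 0.05, where TG had 1433 (12.2%). To avoid a shared estimate, each genotype was also fitted alone, so that the fits share no library, though both genotypes carry the same replicate numbers. TG alone gave 196 calls (1.73%) and WT alone 393 (3.47%). Of 11183 genes tested in both, 142 were called in both, which is 72.8% of the TG calls and 36.5% of the WT calls, all in the same direction. Of the TG calls 98.5% had the same direction in WT, against 71.1% of all genes. Il2rb was 1.8-fold higher in TG (log2 0.85) and had a log2 difference of 0.86 in WT, and Rflnb had -1.22 and -1.37.

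Named by the smallest p of the difference, and with no call, were 5 genes in each direction. Sap130, a subunit of the Sin3 histone deacetylase complex, was at 42.7, 32.9 and 50.6 CPM in TG High and 68.5, 67.9 and 66.9 in TG Low, and at 58.8, 63.8 and 62.7 in WT High and 59.9, 56.5 and 71.3 in WT Low. It was lower in High in TG (log2 -0.68, adjusted p = 0.00364) and at -0.01 in WT, a difference of -0.67 at an unadjusted p of 0.000489. Helb, a DNA helicase, was at 39, 35.4 and 44.5 CPM in TG High and 62.4, 57.7 and 54.5 in TG Low (log2 -0.54, adjusted p = 0.0198) with 0.01 in WT. The unadjusted p of its difference was 0.00314. Clec2d (-0.80) and Emd (-0.55) also had log2 differences more negative in TG, as had Fn1, which stood at 0.53, 0 and 0.234 CPM in TG High and 0.717, 0 and 0.371 in TG Low. Igkv1-135, an antibody segment at 3.34, 0.306 and 0.0469 CPM in TG High and 2.97, 0.303 and 0 in TG Low, Dip2a (0.86), Zmym4 (0.41), Tex9 (1.30) and Zcchc24 (0.54) had those more positive.

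**Figure D5:**
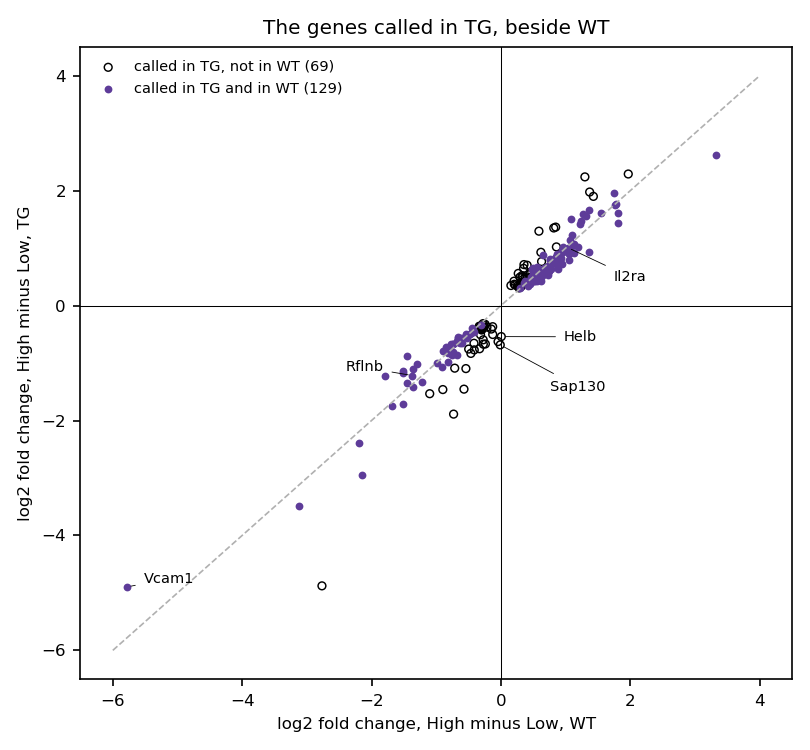
The 198 genes called in TG, with the log2 fold change of High over Low in WT on the x axis and in TG on the y axis, both from 1 fit; the dashed line marks equal values. Filled points (129) were called in WT as well and open points (69) were not; 197 of 198 lie on the same side of 0 in both, and the exception is Helb, which like Sap130 is near 0 in WT.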

How the data were processed

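The values deposited by the authors are raw counts of reads for each Ensembl gene. The tools named in the submitters' processing notes are featureCounts 1.4.6, STAR 2.4 and CASAVA 1.8.2, with build GRCm38 and no settings. Per the labels' protocols, cDNA was amplified with the SMARTer Ultra Low kit, which does not record strand, so a read on 2 overlapping genes cannot be assigned by strand. Of 21839 genes, 21628 were matched to symbols and positions in GENCODE vM21 (GRCm38). TG totals ran from 6767828 to 21382878 counts. Reads carry no molecular identifiers, and every SE reflects how libraries varied.

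Sample titles gave the groups. Counts of all 12 libraries were tested with edgeR 4.0.16 (R 4.3.3) using TMM scaling, filterByExpr (minimum count 10, leaving 11766 genes), robust quasi-likelihood fits with the 4 groups and the replicate number as a block, and Benjamini-Hochberg adjustment at 0.05 over all tested genes. Contrasts were TG High minus Low, WT High minus Low and their difference. Intervals span 1.96 SE on either side. Pair directions used log2(CPM + 0.5). The labels do not say what the replicate numbers mark. Same-numbered libraries of different groups correlated at 0.38 to 0.838 (18 pairs) in their deviations from group means, so the numbers were taken to pair them, on these data alone. No 2 replicates of a TG group agreed within sampling noise (chi-square per degree of freedom 21.0 to 48.1). With 3 libraries a group, no exact two-sided permutation p of unpaired libraries can fall below 0.1. Shuffling within the 3 pairs allows none smaller, so genes were tested in the model alone. On simulated counts for this comparison (11766 genes), the test recovered 71 of 100 genes changed 1.5-fold and 95 of 100 changed 2-fold, all with a mean count of at least 100, and called 16 unchanged genes. Those 16 were a larger share of its calls than the 0.05 that the adjustment aims at. The counts were drawn from a model that held the replicate number, so they cannot check the block itself.

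The members, gene lists, tests and alternatives were chosen with earlier results of these data known. Named genes were the 15 largest log2 changes in each direction among called genes with at least 10 CPM in the higher group, the same direction in 3 of 3 pairs and no predicted-gene symbol. Up to 6 called members of each of 33 lists by smallest p were added (up to 2 where none passed), with Il2ra, Il2rb, Il2rg, Foxp3, Ctla4, Icos, Ikzf2, Cd4 and Atg5 always, and 5 genes in each direction of the difference. Some genes that these rules take are not reported here. Lists were described by counts and medians, with no set test. Alternatives were no replicate block, relative log expression size factors, no filter on low counts, DESeq2 1.42.0, limma voom 3.58.1, the TG libraries alone, leaving out the 4 libraries numbered 1, and leaving out each TG library in turn.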

Additional observations from a re-analysis of the deposited data

How the results depend on the processing

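The replicate block decided the number of calls. Without the block 1 gene was called in TG (1 higher, 0 lower) and 6 in WT, against 198 (116 and 82) and 192 with it. DESeq2 called 362 genes in TG, 212 higher and 150 lower, limma voom 283 (159 and 124), and the fit without the 4 libraries numbered 1 called 39 (29 and 10) in TG and 49 in WT. Leaving out 1 TG library gave 74 to 177 calls in TG, 50 to 113 higher and 24 to 73 lower. Of the 198 genes, 198 stayed called with relative log expression size factors, 195 with no filter, 195 in DESeq2, 197 in limma voom, 152 in the TG libraries alone and 71 to 132 without a single TG library, and none of the 198 changed sign in any of these. Of 61 named called genes, 30 stayed called whichever TG library was left out.

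Genes whose direction turned were all ones that had not passed. Atg5 was at log2 0.00088 without the block. Without the libraries numbered 1, Atg5 was at 0.050, Ikzf2 at 0.15, Cd4 at 0.012 and Itga2b at 0.27. Leaving out 1 TG library gave log2 values of -3.89 to 1.55 for C1qa, -0.77 to 0.42 for Itga2b, -1.04 to 3.13 for Hbb-bs, -0.36 to 0.11 for Ikzf2, -0.060 to 0.00067 for Cd4 and -0.052 to 0.070 for Atg5. C1qa turned positive without Low replicate 1 alone. Depth limits genes of a few counts in TG High replicate 2, the shallowest library, and 15 higher and 14 lower called genes had a mean under 10 CPM in the higher group.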

Other observations

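Of the 35 genes called in every alternative that kept the replicate block, 15 without values above were picked for mention after their values were seen. Among those higher in CD25 High, Tbc1d4, a Rab GTPase activator of glucose transporter traffic, was at 198, 165 and 151 CPM in High and 146, 89.7 and 107 in Low (log2 0.61, SE 0.10, adjusted p = 0.0037). Prnp, the prion protein gene, was at 40.6, 27.7 and 36.8 against 29.8, 14.9 and 22.2 (log2 0.68, SE 0.11, adjusted p = 0.00446), and Ndrg1, a stress-induced gene linked to T cell anergy, at 49.8, 45.2 and 53.1 against 36.5, 25.4 and 34 (log2 0.63, SE 0.10, adjusted p = 0.00254). Rgs1, which shortens chemokine receptor signalling, was at 346, 328 and 391 CPM against 193, 162 and 254 (log2 0.83, SE 0.11, adjusted p = 0.000627). It rose while the chemokine receptors that passed fell. Capn3, a calpain protease, was at 78.4, 61.8 and 75.2 against 47.4, 26.4 and 50.4 (log2 0.83, SE 0.12, adjusted p = 0.00139) and its span overlaps that of Ganc on its own strand. Lad1, an anchoring filament protein of epithelia, was at 105, 60.5 and 99 CPM against 48.7, 28.2 and 62.9 (log2 0.94, SE 0.12, adjusted p = 0.000996). The log2 differences of the others were 0.78 for the glutathione transferase Gsto1, 0.81 for Itih5, 0.64 for Phtf2 and 0.80 for the T cell receptor segment Trbv12-1. Zscan29, a zinc finger gene, had 0.91. Its annotated span overlaps by 472 bases that of Tubgcp4 on the other strand, which was also called higher.

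Among those lower in CD25 High, Sema4a, a semaphorin that binds neuropilin-1 on regulatory T cells, was at 57.4, 81.4 and 106 CPM in High and 86, 151 and 148 in Low (log2 -0.65, SE 0.10, adjusted p = 0.00355). Padi2, which converts arginine to citrulline in proteins, was at 17.8, 25.6 and 19.1 against 31.4, 45.4 and 32.5 (log2 -0.80, SE 0.10, adjusted p = 0.000495). Myo6, a myosin that moves toward the minus end of actin, was at 21.5, 34.4 and 33.8 CPM against 35.4, 57.7 and 64 (log2 -0.79, SE 0.12, adjusted p = 0.00259), and Ggt5, a gamma-glutamyl transferase that cleaves leukotriene C4, at 0.477, 0.153 and 0.0938 against 1.64, 2.73 and 1.48 (log2 -2.95, SE 0.52, adjusted p = 0.00624). These 4 genes fell in each of the 3 pairs, which follows largely from their being called. Of all tested genes 31.9% had the same direction in 3 of 3 pairs.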
